A study of Homo sapiens with 18 samples.

Results

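RAD21 was knocked down in H358 cells, and the transcript level of every counted gene was compared with that in H358 cells given a control vector. The comparison rests on 6 libraries, 3 labelled shRAD21 and 3 labelled shNC, of the 18 in the series. They were chosen by cell line and vector, without reference to any measured value. H358 is an established human lung adenocarcinoma line. The shRAD21 cells carried a lentiviral vector with a short hairpin RNA that targets RAD21, and the labels give their genotype as RAD21 knockdown. The shNC cells carried an empty vector and are labelled wild type. Cells of both groups were grown in RPMI medium with fetal bovine serum, and the 6 libraries share 1 batch label with the same pair of groups made in A549, a second lung adenocarcinoma line. The labels name neither the number of hairpin designs nor whether the 3 libraries of a group came from separate cultures or clones. The p-values therefore rest on the spread between these libraries alone, and that spread may be technical. The title of the series concerns H3K4me3 and ERK signalling, and genes of both themes are described beside other pathways.

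Cohesin is a ring built from SMC1A, SMC3, RAD21 and a STAG protein that closes around DNA. It keeps sister chromatids paired until mitosis, and by extruding loops that stop at CTCF sites it brings enhancers and promoters into contact. A partial loss of cohesin is known to shift the transcript levels of genes scattered over the genome while cells go on dividing.

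The 6 libraries held between 15410292 and 19277568 counts each, and 17215 of 58735 genes had enough counts to be tested. Levels are given in CPM, the counts of a gene relative to the scaled total of its library, as mean ± SD (n = 3 libraries). Genes below an adjusted p of 0.05 in edgeR's quasi-likelihood test with Benjamini-Hochberg adjustment over all tested genes are called, and only these are said to have risen or fallen. Every adjusted p is from this test, and log2 fold changes are shRAD21 over shNC. The epithelial markers EPCAM, CDH1, KRT7, KRT8, KRT18 and KRT19 summed to between 6020 and 6420 CPM in the shNC libraries and between 6190 and 6410 CPM in the shRAD21 libraries. The 9 markers of alveolar type 2 and club cells summed to between 127 and 139 CPM in shNC and between 167 and 181 CPM in shRAD21, nearly all of it NKX2-1, and each surfactant gene had group means under 0.5 CPM. The 8 fibroblast markers summed to between 40.9 and 47.3 CPM in shNC and between 45.9 and 52.7 CPM in shRAD21. Most of this was COL1A1 (39.41 and 43.39 CPM on average, not called), while COL1A2, DCN and THY1 were listed at 0 in all 6 libraries. The 8 leukocyte markers summed to at most 4.98 CPM. In bulk RNA, fewer cells of a type and less RNA per cell cannot be told apart. Genes with a higher GC content had higher fold changes (Spearman's rho = 0.197 across genes, which are not independent replicates), and the deviation of single libraries from their group mean also followed GC content, with rho between -0.326 and 0.248 in shNC and between -0.15 and 0.197 in shRAD21.

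RAD21 transcripts stood at 622, 644 and 659.6 CPM in the shNC libraries and at 414.5, 467.7 and 473.8 CPM in the shRAD21 libraries. All shRAD21 libraries lay below all shNC libraries. The mean fell to 70.4% of the control (adjusted p = 5.54e-10, log2 fold change -0.51, SE 0.04), a partial reduction of the message. The exact two-sided permutation test over the 20 splits of 3 against 3 gave p = 0.1, the smallest it allows. RAD21 lies at chr8:116845935-116874866 on the minus strand of hg38, and 14.2% of its exonic length overlaps exons on the other strand, which reads counted without strand cannot separate. In A549 the same comparison gave a log2 fold change of -1.08, and the test of the difference between the lines gave 0.57 (SE 0.12, adjusted p = 0.00228): the RAD21 message was lowered less in H358.

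No other subunit of the ring was called lower. SMC1A, the ATPase partner of SMC3, was at 259.1 ± 6.7 CPM in shNC and 276.9 ± 6.24 CPM in shRAD21 (adjusted p = 0.0818, but 0.00335 with GC and length offsets, where its log2 fold change was 0.14), and SMC3 was at 97.03 ± 4.62 and 92.4 ± 8.9 CPM (adjusted p = 0.413). STAG2, the more abundant STAG subunit in many somatic cells, was at 189.5 ± 5.93 and 181.1 ± 6.49 CPM (adjusted p = 0.299). Its paralogue STAG1 rose from 31.93, 31.51 and 35.3 CPM to 36.59, 45.38 and 47.96 CPM (adjusted p = 0.000542, log2 fold change 0.40, SE 0.08), although 21.2% of its exonic length overlaps exons on the other strand. REC8, the kleisin of meiosis, rose from 11.02 ± 1 to 17.92 ± 1.53 CPM (adjusted p = 9.7e-06, log2 fold change 0.71, SE 0.11). RAD21L1, a further meiotic kleisin, was too low to test, with counts in 1 shNC library only, and SMC1B and STAG3 did not pass the test. Around the ring, ESCO2, which acetylates SMC3 in S phase, and CDCA5, the sororin that protects cohesion, rose by 0.28 and 0.32 (log2), and HDAC8, the SMC3 deacetylase, fell by 0.29. The HDAC8 call was lost in the fit of all 12 shRNA libraries of both lines and in 8 further alternatives. That of ESCO2 was lost in the 12-library fit alone. In all, 4 of 26 tested cohesin genes rose and 2 fell, RAD21 included, beside 12.7% and 13.3% of all genes tested.

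**Figure D1:**
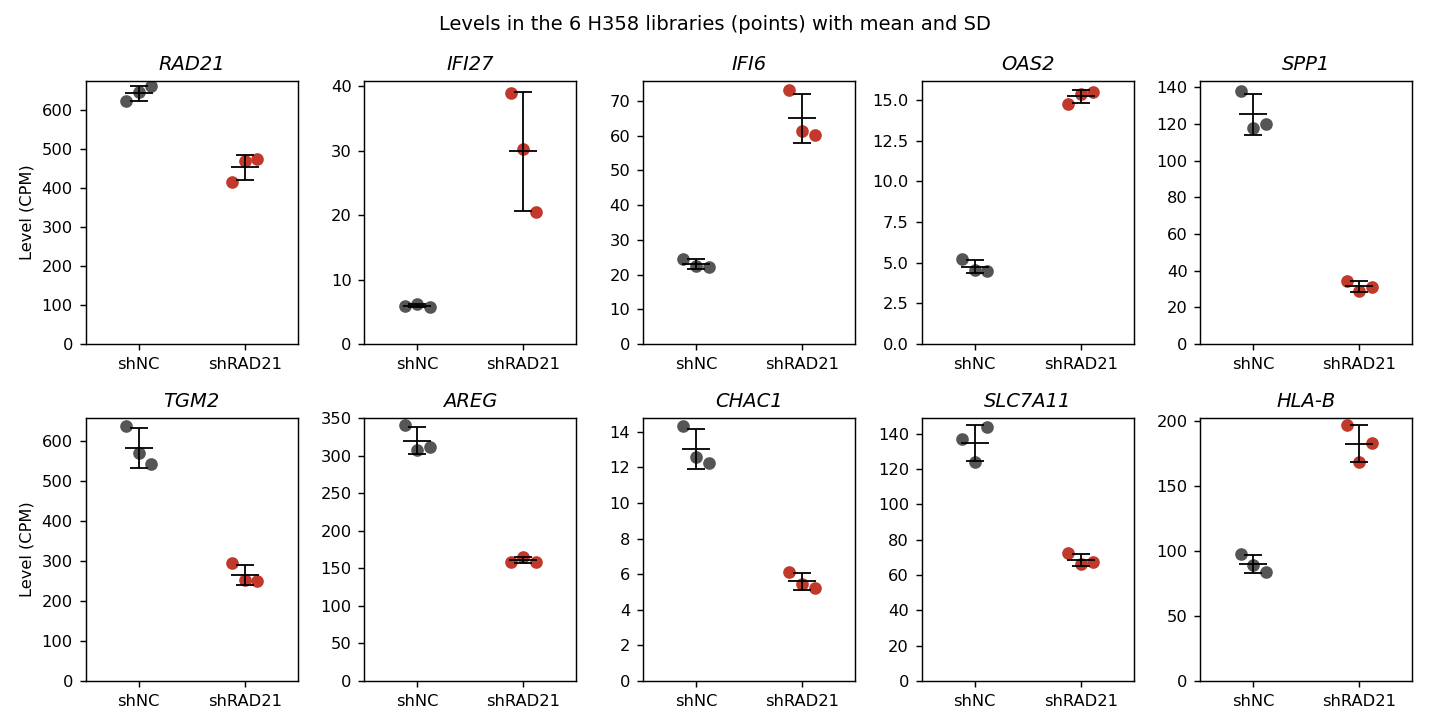
Levels in CPM of 10 genes in the 6 H358 libraries, 1 panel per gene with an axis that starts at 0. Points are libraries, the horizontal line is the mean and the bars are the SD over 3 libraries. No shRAD21 point overlaps the shNC range in any of the 10 panels: RAD21 fell from 641.9 to 452.0 CPM, IFI27 rose from 5.984 to 29.89 CPM and SPP1 fell from 125.2 to 31.5 CPM.

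Over all genes the response was broad and mostly small. Of the 17215 genes tested, 2186 rose (12.7%) and 2287 fell (13.3%), 26% in either direction. The median absolute log2 fold change of the called genes was 0.307, and 82% of them changed less than 1.5-fold. At 1.5-fold or more 424 genes rose (2.46%) and 382 fell (2.22%), and at 2-fold or more 162 rose (0.941%) and 100 fell (0.581%). The ranges of the groups did not overlap for 6631 genes (38.5%). The share called varied with the shNC level. Of the 624 tested genes with the highest shNC levels 16.8% rose and 38.8% fell, and of the 1568 with the lowest 7.65% rose and 0.574% fell. The shNC levels are themselves part of the comparison, and a gene low in shNC could pass the filter through its shRAD21 counts. These shares therefore cannot show whether the response depended on level. The shares of all genes given beside the gene lists are not matched for level. When the spread was pooled over all 12 shRNA libraries of both lines, the biological coefficient of variation was 0.0864 in place of 0.0493, and 716 genes rose and 875 fell; 44 of the 252 called genes named by the rule lost their call in that fit alone and 48 lost it there and under another alternative.

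**Figure D2:**
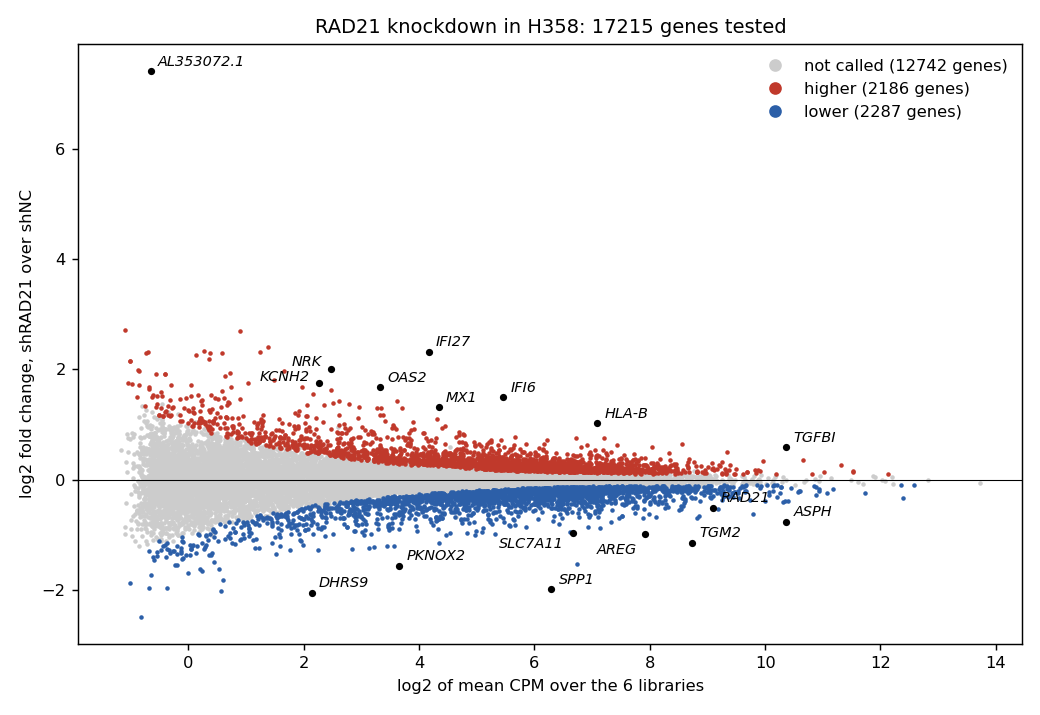
Fold changes of the 17215 tested genes against their mean level, both on log2 scales. Each point is a gene, coloured by whether it rose (2186), fell (2287) or was not called (12742), and labelled genes are black. RAD21 lies among many genes with a similar fold change, IFI27 and SPP1 lie apart from genes of their level. AL353072.1, a pseudogene with no count in shNC, is drawn at a fitted value that depends on the prior count of the fit and is no measure of its fold change.

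IFI27, an interferon-stimulated gene, had the largest rise of any called protein-coding gene with a mean of at least 4 CPM, and OAS2, another, the fourth largest. Interferon-stimulated genes are switched on by type I and type II interferons, whose receptors signal through JAK kinases to a complex of STAT proteins and IRF9, and their products detect viral RNA, block viral replication and mark proteins with ISG15. Of 59 listed genes, all tested, 30 rose and 2 fell, beside 12.7% and 13.3% of all genes, and their median log2 fold change was 0.20, against 0.00 over all genes. With the spread pooled over all 12 shRNA libraries 15 rose. By library, the median of the list was between -0.01 and 0.02 in shNC and between 0.13 and 0.21 in shRAD21. The list was written with earlier results of these data known and is no independent evidence of a direction.

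The factor complex that drives these genes binds the interferon-stimulated response element, and promoters of 3 genes that rose show how its core occurs in them. They are RefSeq sequences of 300 bases around the gene start on GRCh38.p14, written 5′ to 3′ along the gene, with matches in capitals; the core searched was GAAA, any 2 bases and GAAA again, on either strand.
IFI6: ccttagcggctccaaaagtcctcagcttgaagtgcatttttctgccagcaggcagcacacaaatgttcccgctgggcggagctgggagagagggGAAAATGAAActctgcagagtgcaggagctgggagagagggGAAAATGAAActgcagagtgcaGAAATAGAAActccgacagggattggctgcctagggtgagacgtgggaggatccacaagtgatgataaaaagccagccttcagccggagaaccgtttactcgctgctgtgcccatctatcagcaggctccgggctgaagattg
OAS3: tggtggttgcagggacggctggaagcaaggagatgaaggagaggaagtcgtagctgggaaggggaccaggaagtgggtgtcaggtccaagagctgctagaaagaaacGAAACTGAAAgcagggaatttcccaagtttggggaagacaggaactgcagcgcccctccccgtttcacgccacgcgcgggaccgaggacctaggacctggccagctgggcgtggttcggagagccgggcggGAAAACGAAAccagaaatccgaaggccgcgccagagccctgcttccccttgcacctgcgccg
IFI27: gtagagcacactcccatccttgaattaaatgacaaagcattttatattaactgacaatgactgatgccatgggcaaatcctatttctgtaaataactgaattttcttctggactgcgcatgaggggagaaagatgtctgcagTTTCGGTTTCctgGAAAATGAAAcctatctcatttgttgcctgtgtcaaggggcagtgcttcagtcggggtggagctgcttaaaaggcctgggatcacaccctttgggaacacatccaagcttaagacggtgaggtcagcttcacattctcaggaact
These windows are chr1:27672143-27672442 on the minus strand for IFI6, chr12:112938224-112938523 on the plus strand for OAS3 and chr14:94110486-94110785 on the plus strand for IFI27. They hold 3, 2 and 2 matches. The core was found in 3.65% of 27305 RefSeq promoters of this length and in 2.83% of the 11571 that matched tested genes, but in 27 of the 45 matched interferon-stimulated genes (60.0%). It was found in 13 of the 23 matched genes that rose (56.5%) and in 13 of the 21 that were not called (61.9%). A match describes the letters and says nothing of what is bound there.

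Among the sensors of viral RNA, 7 of 11 rose and none fell. OAS2, an enzyme that makes the 2′-5′ oligoadenylate that activates RNase L, stood at 5.22, 4.562 and 4.518 CPM in shNC and at 14.77, 15.38 and 15.48 CPM in shRAD21. The groups were far apart and each was tight, with a 3.19-fold rise (adjusted p = 2.76e-11, log2 fold change 1.67, SE 0.12). Its neighbour OAS3 went from 109.2, 111.6 and 108 CPM to 187.1, 175.2 and 193.8 CPM (adjusted p = 5.08e-13, log2 fold change 0.76, SE 0.05), and OAS1, the third gene of the cluster, rose by 0.54 (log2). DDX58, which encodes the RNA helicase RIG-I, rose by 0.40 (log2), while IFIH1, which encodes MDA5, was at 38.65 CPM in shNC and 41.45 CPM in shRAD21 and was not called.

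Among the antiviral effectors 16 of 31 rose and 2 fell. IFI27, a small membrane protein of the interferon response, stood at 5.949, 6.239 and 5.763 CPM in shNC and at 38.98, 30.19 and 20.51 CPM in shRAD21. The lowest shRAD21 library was above the highest shNC library, but the treated libraries spread widely (29.89 ± 9.24 CPM, against 5.984 ± 0.24). The rise was 5.0-fold (adjusted p = 4.42e-12, log2 fold change 2.32, SE 0.16). IFI6, an endoplasmic reticulum protein that restricts flaviviruses, rose from 24.58, 22.49 and 22.07 CPM to 73.11, 61.45 and 60.18 CPM, 2.82-fold (adjusted p = 1.26e-14, log2 fold change 1.49, SE 0.08). MX1, a dynamin-like GTPase that blocks influenza virus, rose from 11.29, 11.48 and 12.31 CPM to 30.18, 27.02 and 29.54 CPM, 2.47-fold (adjusted p = 1.25e-11). Neither gene's groups overlapped. ISG15, the ubiquitin-like modifier, rose from 149 to 181.9 CPM on average (adjusted p = 1.44e-05, log2 fold change 0.29, SE 0.04). The 2 that fell were the guanylate-binding proteins GBP2, from 15.78 ± 0.978 to 10.23 ± 0.581 CPM (adjusted p = 5.26e-05, log2 fold change -0.63, SE 0.11), and GBP1, from 18.87 ± 2.11 to 15.63 ± 1.53 CPM, whose groups overlap (adjusted p = 0.0482) and whose call was lost in 7 alternatives beside the 12-library fit.

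Among the transcription factors of this response, IRF9, the DNA-binding part of the complex, rose from 6.011 ± 0.12 to 8.546 ± 0.453 CPM (adjusted p = 0.00568, log2 fold change 0.51, SE 0.14), with 48.4% of its exonic length shared with another gene on the same strand. IRF7, which amplifies interferon production, rose from 20.25 to 29.42 CPM (log2 fold change 0.54). STAT2, a partner of IRF9, was not called. The interferons themselves were hardly seen: only 1 of 7 listed ligands had enough counts to test, and it was not called. Upstream, JAK1 fell by 0.21 (log2), TMEM173, which encodes the DNA-sensing adaptor STING, fell from 64.25 ± 2.62 to 52.45 ± 3.22 CPM (log2 fold change -0.29, adjusted p = 0.000482), and MAVS, the adaptor of the RNA sensors, fell by 0.12. IFNGR1 rose by 0.24 and IFNGR2 fell by 0.32, both near the threshold (adjusted p = 0.0372 and 0.0181). Beside the 12-library fit, the IFNGR1 call was lost in 5 alternatives, the IFNGR2 call without shNC replicate 1 or shRAD21 replicate 2 or 3, and the MAVS call without shNC replicate 2 or shRAD21 replicate 1 or 2. The calls of IRF9, JAK1 and TMEM173 were lost in the 12-library fit alone.

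**Figure D3:**
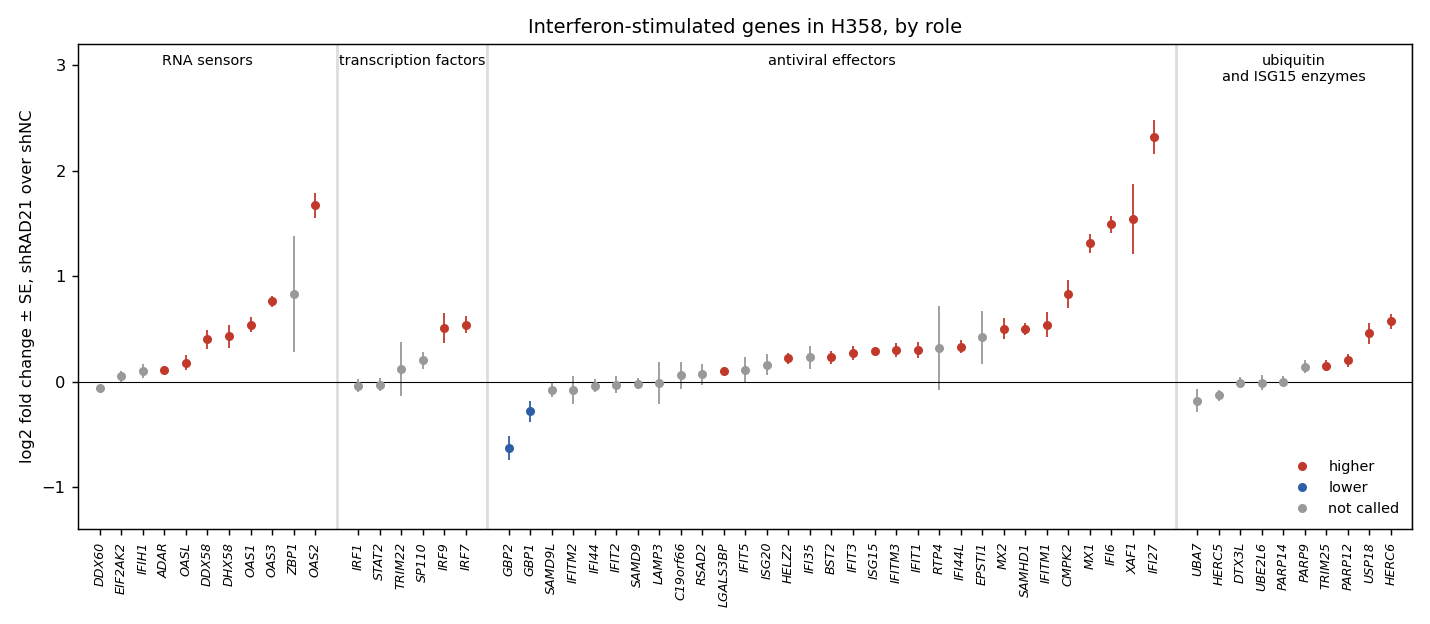
Log2 fold changes with standard errors of interferon-stimulated genes, grouped by role and ordered by fold change within a role. Red genes rose, blue genes fell and grey genes were not called. RNA sensors and effectors range from genes near 0 to OAS2 at 1.67 and IFI27 at 2.32, and the 2 blue points are GBP2 and GBP1.

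Genes of MHC class I presentation moved in both directions. MHC class I molecules carry peptides to the cell surface for CD8 T cells, and their genes are induced by interferons and by the transactivator NLRC5. Of 19 tested genes 10 rose and 4 fell (12.7% and 13.3% of all genes). Among the heavy and light chains 5 of 6 rose. HLA-B stood at 97.3, 89.14 and 83.69 CPM in shNC and at 196.3, 168 and 183 CPM in shRAD21, a 2.03-fold rise with no overlap (adjusted p = 5.14e-14, log2 fold change 1.02, SE 0.06). HLA-C rose by 0.44 and the light chain B2M by 0.22 (log2). The HLA genes resemble each other, so reads may be split between them, and 17.8% of the exonic length of HLA-B overlaps exons on the other strand. NLRC5 rose from 28.35, 30.25 and 28.22 CPM to 49.67, 46.83 and 45.51 CPM (adjusted p = 7.76e-09, log2 fold change 0.71, SE 0.07). The peptide transporters TAP1 and TAP2 rose by 0.35 and 0.22, whereas the trimming enzyme ERAP1 fell by 0.21, the proteasome activator PSME1 by 0.16 and the loading partner PDIA3 by 0.16. The ERAP1 call was lost with GC and length offsets, and that of PSME1 when shNC replicate 1 or 2 or shRAD21 replicate 2 or 3 was left out. With the spread pooled over 12 libraries 2 genes of the list rose, and the calls of HLA-C, B2M, ERAP1, PSME1 and PDIA3 were lost.

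Genes of NF-kB, the factor of inflammatory signalling, moved in both directions. Of 24 tested genes 11 rose and 6 fell (12.7% and 13.3% of all genes), with a median log2 fold change of 0.21. The feedback inhibitors and effectors rose in 8 of 14 cases. SOD2, the mitochondrial superoxide dismutase, went from 21.37, 21.24 and 21.87 CPM to 35.96, 33.29 and 32.49 CPM (adjusted p = 2.55e-07, log2 fold change 0.66, SE 0.08). TRAF1, TNFAIP3 and BIRC3, which restrain or shape receptor signalling, rose by 0.85, 0.96 and 0.69 (log2). IL32, a cytokine of epithelial and immune cells, rose from 0.7891, 0.9962 and 0.6548 CPM to 3.961, 3.987 and 5.159 CPM, 5.37-fold (adjusted p = 3.56e-08). Against these, NFKBIZ, an atypical inhibitor that activates a subset of targets, fell from 67.25 ± 2.95 to 47.19 ± 2.84 CPM (adjusted p = 2.07e-07, log2 fold change -0.51, SE 0.06). LIF, a cytokine of the interleukin 6 family, fell by 0.45, and CXCL8, a neutrophil chemokine, by 0.43. Only 6 genes of the list rose when genes had to reach 10 CPM in 3 libraries.

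Most targets of ATF4 fell. ATF4 is the transcription factor of the integrated stress response, translated when eIF2 alpha is phosphorylated, and it drives genes of amino acid synthesis and uptake, tRNA charging and glutathione turnover. Of 36 tested targets 27 fell and 1 rose (13.3% and 12.7% of all genes), and the median log2 fold change was -0.40. The median of the list was between -0.05 and 0.08 in the shNC libraries and between -0.44 and -0.37 in the shRAD21 libraries. With the spread pooled over 12 libraries 22 targets fell.

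ATF4 binds with C/EBP partners at the C/EBP-ATF response element, whose core TGATGNAA was searched on both strands. The promoters of CHAC1, the target with the largest fall, and of SLC7A1, a transporter that fell, are shown on GRCh38.p14 from RefSeq with the matches in capitals.
CHAC1: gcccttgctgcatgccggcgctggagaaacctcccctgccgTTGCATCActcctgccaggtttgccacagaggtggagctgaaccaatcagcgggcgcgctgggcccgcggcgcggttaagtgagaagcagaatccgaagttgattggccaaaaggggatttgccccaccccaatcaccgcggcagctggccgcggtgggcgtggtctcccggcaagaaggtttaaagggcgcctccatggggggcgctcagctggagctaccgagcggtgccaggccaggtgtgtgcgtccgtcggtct
SLC7A1: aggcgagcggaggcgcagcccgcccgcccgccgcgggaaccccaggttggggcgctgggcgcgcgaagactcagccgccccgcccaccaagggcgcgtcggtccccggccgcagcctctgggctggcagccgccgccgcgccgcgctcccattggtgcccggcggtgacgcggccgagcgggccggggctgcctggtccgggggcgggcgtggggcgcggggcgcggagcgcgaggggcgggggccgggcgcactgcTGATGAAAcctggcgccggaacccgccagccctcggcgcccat
They lie at chr15:40953221-40953520 on the plus strand and at chr13:29595639-29595938 on the minus strand, each with 1 match. The match in CHAC1 is on the opposite strand. The core was found in 1.75% of promoters of tested genes and in 6 of 29 matched ATF4 targets (20.7%). It was in 4 of the 21 that fell (19%) and in 2 of the 7 not called (28.6%). In the printed windows of all 5 genes no match of one of the searched motifs overlapped a match of another.

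Among regulators, CHAC1, which degrades glutathione, stood at 14.33, 12.58 and 12.25 CPM in shNC and at 6.098, 5.443 and 5.22 CPM in shRAD21, so that the level fell to 42.8% of control without overlap (adjusted p = 2.01e-08, log2 fold change -1.22, SE 0.13). ATF4 itself went from 345.7, 312.4 and 324 CPM to 251.6, 229.7 and 239.3 CPM (adjusted p = 8.54e-09, log2 fold change -0.45, SE 0.04). DDIT4 and SESN2, stress-induced inhibitors of mTORC1, fell by 0.97 and 0.78, and TRIB3, a pseudokinase that damps ATF4, by 0.54 (log2). For DDIT4, 41.2% of the exonic length overlaps exons on the other strand. DDIT3, which encodes CHOP, was at 6.447 and 5.065 CPM and was not called. ATF5 was the exception and rose from 14.8 ± 0.972 to 22.36 ± 0.471 CPM (adjusted p = 1.46e-05, log2 fold change 0.60, SE 0.09), with 21.2% overlap on the other strand.

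Amino acid synthesis and transport followed, with 9 of 12 and 7 of 8 genes lower. PHGDH, the entry enzyme of serine synthesis, went from 236.2, 214.3 and 221 CPM to 150.7, 142.6 and 133.7 CPM (adjusted p = 2.6e-11, log2 fold change -0.65, SE 0.05). PSAT1 and PSPH, the next enzymes of that pathway, fell by 0.39 and 0.31, ASNS, asparagine synthetase, by 0.91, and MTHFD2, of mitochondrial folate metabolism, by 0.43 (log2). Of the exonic length of ASNS 44.6% is shared on the same strand, and of that of MTHFD2 33.2% overlaps the other strand. SLC7A11, the cystine importer that feeds glutathione synthesis, went from 137.2, 123.8 and 143.7 CPM to 72.23, 66.26 and 67.18 CPM, 50.8% of control (adjusted p = 1.07e-13, log2 fold change -0.97, SE 0.06). Of the secreted products, VEGFA fell from 568.1 ± 28.6 to 360.2 ± 17.3 CPM (adjusted p = 1.79e-12), STC2, a glycoprotein hormone, from 225.2 ± 13.3 to 142.3 ± 4.53 CPM, and GDF15 from 53.97 ± 10.5 to 33.5 ± 2.05 CPM.

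Of 20 cytosolic aminoacyl-tRNA synthetases, which load amino acids onto tRNAs, 12 fell and 3 rose (13.3% and 12.7% of all genes), with a median log2 fold change of -0.20. AARS went from 464.1, 428.2 and 408 CPM to 319.1, 289.5 and 282 CPM (adjusted p = 6.5e-10, log2 fold change -0.55, SE 0.05), and YARS, SARS and GARS fell by 0.56, 0.48 and 0.45. The 3 that rose, FARSA, HARS and VARS, did so by 0.29, 0.17 and 0.11, and the calls of all 3 were lost with the spread pooled over 12 libraries. VARS lost its call in 8 further alternatives, GC and length offsets among them, and HARS in 3, without shNC replicate 3 or shRAD21 replicate 1 or 3. Genes of the unfolded protein response, the other stress programme of the endoplasmic reticulum, fell in 11 of 21 cases and rose in 2 (13.3% and 12.7% of all genes). HSPA5, the chaperone BiP, went from 1306 ± 18.9 to 1046 ± 26.4 CPM (adjusted p = 3.73e-08, log2 fold change -0.32, SE 0.03). XBP1, a transcription factor of this response, fell by 0.41, HERPUD1, of protein degradation, by 0.46, and the sensors ERN1 and EIF2AK3, which encode IRE1 and PERK, by 0.60 and 0.47.

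**Figure D4:**
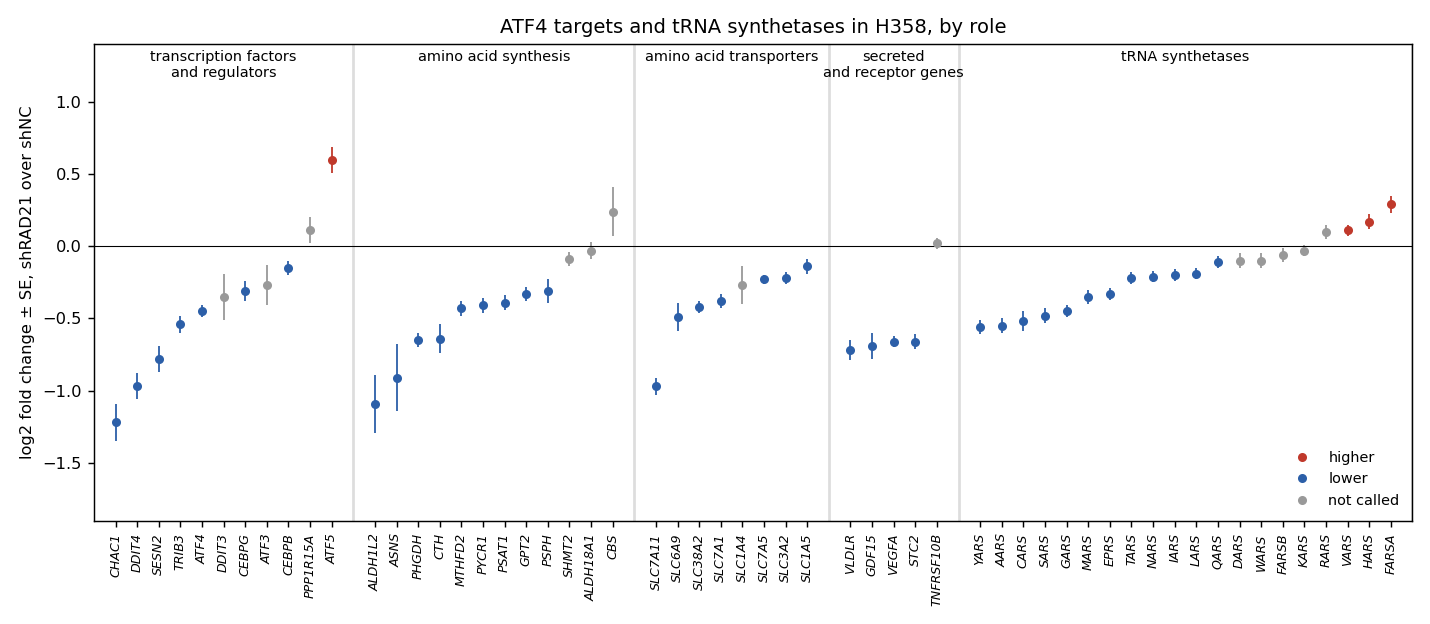
Log2 fold changes with standard errors of the 36 tested ATF4 targets and the 20 aminoacyl-tRNA synthetases, grouped by role and ordered within a role. Blue genes fell, red genes rose and grey genes were not called. Most points lie below 0, from CHAC1 at -1.22, and the red points are ATF5, VARS, HARS and FARSA.

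NRF2, encoded by NFE2L2, is the factor of the antioxidant response, and it shares SLC7A11 with ATF4. Of 37 tested targets 14 fell and 3 rose (13.3% and 12.7% of all genes), with a median log2 fold change of -0.13. With the spread pooled over 12 libraries 8 fell. NFE2L2 itself was at 94.96 ± 3.29 and 86.78 ± 0.669 CPM and did not pass the test (adjusted p = 0.0527; 0.0446 where genes had to reach 10 CPM). ABCC3, an efflux pump for conjugated drugs and bile salts, went from 163.1, 150.3 and 142.5 CPM to 101.8, 91.26 and 90.64 CPM (adjusted p = 8.37e-11, log2 fold change -0.68, SE 0.05). NQO1, the quinone reductase, fell by 0.34 and TXNRD1, thioredoxin reductase, by 0.29. The risers were GSTM3, SRXN1 and EPHX1, at 0.58, 0.48 and 0.27 (log2), and SRXN1 shares 85% of its exonic length with another gene on the same strand. Beside the 12-library fit, the SRXN1 call was lost in 4 alternatives and that of GSTM3 without shNC replicate 2. HMOX1 and GCLM, both classical targets, were not called. Here the promoter core TGACNNNGC was in 6 of 31 matched targets (19.4%), beside 15.1% of the promoters of all tested genes.

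AREG and EREG were among the ligands of growth factor receptors that fell. Tumour cells feed their own receptor tyrosine kinases with such ligands, and those of EGFR act upstream of RAS and ERK. Of 33 tested ligand genes 13 fell and 3 rose (13.3% and 12.7% of all genes), with a median log2 fold change of -0.24. In the EGF family 4 of 8 fell and none rose. AREG, which encodes amphiregulin, stood at 341.3, 307.5 and 311.4 CPM in shNC and at 158.4, 165.1 and 158.3 CPM in shRAD21, 50.2% of control (adjusted p = 7.15e-16, log2 fold change -0.99, SE 0.04). EREG, epiregulin, beside it on chromosome 4, went from 337.4, 323.7 and 354.5 CPM to 198.4, 225.8 and 207.9 CPM (adjusted p = 4.78e-12, log2 fold change -0.68, SE 0.05). TGFA fell from 137.1 ± 7.1 to 96.44 ± 3.76 CPM and BTC, betacellulin, from 10.49 to 6.223 CPM, while EGF, HBEGF, NRG1 and NRG4 were not called. Outside this family, PDGFB fell by 0.82, WNT7B by 0.48 and FGF19, at low counts, by 1.62 (log2). PGF, the placental growth factor, whose call was lost in 3 alternatives beside the 12-library fit, rose from 4.143 ± 0.661 to 5.925 ± 0.786 CPM and WNT10A from 0.4596 ± 0.287 to 2.105 ± 0.246 CPM (adjusted p = 5.25e-05).

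Of 16 tested receptors 3 rose and 3 fell, beside 12.7% and 13.3% of all genes. FGFR3 rose from 8.802, 7.078 and 6.614 CPM to 17.73, 17.72 and 20.02 CPM (adjusted p = 1.26e-09, log2 fold change 1.30, SE 0.12). AXL, the receptor of GAS6, rose from 6.355 ± 0.862 to 14.35 ± 1.49 CPM (adjusted p = 4.51e-08, log2 fold change 1.17, SE 0.13). MET, the receptor of HGF, fell from 475.2 ± 22.4 to 378.6 ± 4.99 CPM (log2 fold change -0.33). EGFR was lower by 0.16 (adjusted p = 0.0181) with overlapping groups, and its call was lost in 4 alternatives beside the 12-library fit.

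The 10 genes of the published MAPK activity score are transcripts that follow ERK output, among them the feedback inhibitors DUSP4, DUSP6, SPRY2 and SPRY4. Of these 7 fell and none rose (13.3% and 12.7% of all genes), with a median log2 fold change of -0.24. PHLDA1 went from 703.8, 676.2 and 684.2 CPM to 450.9, 497.9 and 479.8 CPM (adjusted p = 2.96e-11, log2 fold change -0.53, SE 0.04), the largest of these falls. DUSP6, the phosphatase that dephosphorylates ERK, went from 75.94, 71.68 and 73.28 CPM to 56.71, 53.99 and 56.93 CPM (adjusted p = 2.71e-06, log2 fold change -0.40, SE 0.06), with 40.5% of its exonic length overlapping the other strand. DUSP4, a nuclear relative, fell by 0.29, and the ETS factors ETV5 and ETV4 by 0.33 and 0.27. EPHA2 fell by 0.21 and the adaptor SPRY2 by 0.20 (adjusted p = 0.0391). The last was lost in 7 alternatives beside the 12-library fit. CCND1, cyclin D1, was at 871.8 ± 34.4 and 855.9 ± 36.6 CPM, and EPHA4 and SPRY4 were slightly above control, all not called. With the spread pooled over 12 libraries 4 of the 10 fell, and the calls of ETV4 and EPHA2 were lost in that fit alone.

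In the RAS to ERK core itself 9 of 26 genes fell and 3 rose (13.3% and 12.7% of all genes). NRAS fell from 128.4 to 115.6 CPM (log2 fold change -0.15), while HRAS rose from 30.97 ± 0.238 to 40.36 ± 0.798 CPM (log2 fold change 0.38, SE 0.07). RPS6KA3, the kinase RSK2 downstream of ERK, fell from 257.5 ± 13.2 to 181.0 ± 1.36 CPM (adjusted p = 5.54e-10, log2 fold change -0.51, SE 0.04). The GTPase-activating proteins RASA1 and NF1, which switch RAS off, fell by 0.47 and 0.23. MAPK3, MAP2K1, MAP2K2 and BRAF were not called. Immediate early genes, the first transcripts after ERK activation, rose in 8 of 31 cases and fell in 5 (12.7% and 13.3% of all genes): DUSP5 fell by 0.72, whereas JUN rose from 71.87 ± 7.23 to 90.09 ± 5.92 CPM and KLF2 from 5.824 ± 0.499 to 10.87 ± 1.2 CPM. FOS, FOSL1 and MYC were not called. The calls of HRAS, NF1 and JUN were lost in the 12-library fit alone.

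Enzymes write and erase H3K4 methylation in large complexes. Of 28 tested genes of the methyltransferase complexes 5 fell and 2 rose, near the shares of all genes (13.3% and 12.7%), and of 7 demethylase genes 2 fell. KMT2D, a methyltransferase of enhancers, went from 382.5 ± 2.98 to 339.1 ± 11.1 CPM (adjusted p = 0.00125, log2 fold change -0.17, SE 0.04). KMT2A and KMT2C were both lower by 0.15 and SETD1A was higher by 0.21, but these 3 calls were lost with GC and length offsets. PSIP1, a chromatin reader that tethers KMT2A, fell by 0.26 (adjusted p = 0.000362). The subunits WDR5, RBBP5, ASH2L and DPY30, which all these complexes share, were not called. KDM5B, which removes H3K4 methylation, fell by 0.22 and RCOR1, the corepressor partner of KDM1A, by 0.20, and the KDM5B call was lost with the offsets. The calls of KMT2D, PSIP1 and RCOR1 were lost in the fit of all 12 libraries, as were the other calls named here. The mark itself was not measured in these libraries.

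Most genes of DNA replication rose. S phase genes are driven by E2F factors and encode the helicase, polymerases and nucleotide supply of the replication fork. Of 49 tested genes 33 rose and none fell (12.7% and 13.3% of all genes), with a median log2 fold change of 0.25. By library, the median of the list was between -0.07 and 0.05 in shNC and between 0.17 and 0.28 in shRAD21. The rises were small and even: MCM6, of the replicative helicase, went from 123.5, 137.5 and 138.8 CPM to 178.8, 194.5 and 193.8 CPM (adjusted p = 5.44e-09, log2 fold change 0.50, SE 0.05). FEN1, the flap endonuclease, rose by 0.45, UHRF1, which maintains DNA methylation, by 0.43, and thymidine kinase TK1 by 0.39. The cyclins of S phase entry, CCNE1 and CCNE2, rose by 0.47 and 0.45, with 37.1% of CCNE2 overlapping the other strand. With the spread pooled over 12 libraries 18 of the 49 rose.

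Of 55 genes of G2 and mitosis 16 rose and 2 fell (12.7% and 13.3% of all genes), with a median of 0.07. FOXM1, their transcription factor, went from 77.39, 86.83 and 82.97 CPM to 103.8, 107.9 and 107 CPM (adjusted p = 2.95e-06, log2 fold change 0.37, SE 0.05), and BIRC5, survivin, rose by 0.35. The number that rose was 5 in the fit of 12 libraries and 28 with a replicate block and GC and length offsets. Of 16 regulators of G1, 5 rose and 2 fell, beside the same shares. CCND3, cyclin D3, rose from 46.48 ± 3.96 to 65.68 ± 1.9 CPM (log2 fold change 0.50) and the CDK inhibitor CDKN1A from 59.66 ± 4.35 to 77.79 ± 3.39 CPM (adjusted p = 1.24e-05, log2 fold change 0.38, SE 0.06), while CDKN2B, which encodes p15, fell from 75.3 ± 2.72 to 57.27 ± 4.85 CPM.

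Of 28 genes for making ribosomes 12 rose and none fell (median 0.14; 12.7% and 13.3% of all genes), with BOP1 going from 185.9, 184.8 and 181 CPM to 233.6, 241.9 and 231.3 CPM (adjusted p = 1.28e-07, log2 fold change 0.36, SE 0.04). The BOP1 call was lost in the 12-library fit alone. Of 76 genes of cytosolic ribosomal proteins 29 fell (38.2%) and 3 rose (median -0.10), beside 13.3% and 12.7% of all genes. RPL5 fell by 0.32 and RPL3 by 0.24. Of the 624 tested genes with the highest shNC levels, however, 38.8% fell and 16.8% rose (median -0.06). Whether ribosomal protein genes fell more often than other genes of their level was not tested. Many ribosomal protein genes have processed pseudogenes that can take some of their reads. The median of the ribosomal protein list also differed between replicates, from -0.07 to 0.07 in shNC and from -0.13 to -0.02 in shRAD21, so the groups overlap. EEF1A1, the elongation factor that delivers tRNAs, fell from 6116, 5995 and 5993 CPM to 4768, 4764 and 4755 CPM (adjusted p = 5.06e-10, log2 fold change -0.34, SE 0.03).

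SPP1 and DHRS9 had the largest falls of the called protein-coding genes with a mean of at least 4 CPM. SPP1 encodes osteopontin, a secreted ligand of integrins and CD44. It stood at 137.9, 118 and 119.7 CPM in shNC and at 34.51, 28.8 and 31.2 CPM in shRAD21. The highest treated library was far below the lowest control, at 25.2% of control on average (adjusted p = 6.89e-19, log2 fold change -1.99, SE 0.07). Receptors of such ligands fell too: of 12 integrin genes 8 fell and none rose (13.3% and 12.7% of all genes), with a median of -0.34. ITGB6, the epithelial subunit that activates TGF-beta, went from 104.6, 95.95 and 102.2 CPM to 60.98, 59.62 and 59.63 CPM (adjusted p = 1.04e-11, log2 fold change -0.75, SE 0.05), with 20.6% of its exonic length shared on the same strand. The laminin-binding subunits ITGA6 and ITGA3 fell by 0.53 and 0.40, their partner ITGB1 by 0.33 and ITGB4, of hemidesmosomes, by 0.20. The median of the integrin list was 0.00 or 0.01 in every shNC library and between -0.35 and -0.32 in every shRAD21 library.

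Matrix genes went both ways, with 11 of 29 higher and 10 lower (12.7% and 13.3% of all genes). TGFBI, a matrix protein induced by TGF-beta, went from 1016, 1075 and 1046 CPM to 1567, 1582 and 1578 CPM (adjusted p = 1.44e-13, log2 fold change 0.59, SE 0.03). COL5A1 rose from 78.03 ± 6.53 to 131.8 ± 9.86 CPM (log2 fold change 0.75) and SPARC, a collagen-binding glycoprotein, from 2.268 ± 0.638 to 6.716 ± 0.822 CPM (log2 fold change 1.56). The laminin chain LAMC1 fell by 0.26 and TNC, tenascin C, by 0.38. Of mesenchymal genes 7 of 28 rose and 5 fell, beside 12.7% and 13.3% of all genes: FN1, fibronectin, rose by 0.28, whereas the intermediate filament VIM fell from 76.79 ± 6.27 to 52.6 ± 3.52 CPM and LOXL2, which cross-links collagen, from 289.7 ± 11.2 to 179.5 ± 6.74 CPM. For VIM, 24.4% of the exonic length overlaps the other strand. The FN1 call was lost in the 12-library fit alone. Epithelial genes were split evenly, 10 of 36 each way (12.7% and 13.3% of all genes), with CDH1, E-cadherin, going from 533.4, 551.2 and 555.7 CPM to 653.1, 652.2 and 647.7 CPM (log2 fold change 0.25) and MUC1 rising by 0.71, while ELF3, an epithelial ETS factor, fell by 0.35.

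Retinoid genes make retinoic acid from vitamin A and respond to it, and 9 of 18 tested fell and 2 rose (13.3% and 12.7% of all genes), with a median of -0.23. DHRS9, a retinol dehydrogenase, stood at 8.62, 6.292 and 6.417 CPM in shNC and at 1.76, 1.266 and 2.088 CPM in shRAD21, 24% of control (adjusted p = 9.41e-09, log2 fold change -2.05, SE 0.21). TGM2, tissue transglutaminase, a classical target of retinoic acid, went from 637.7, 569.9 and 541 CPM to 294.7, 252.1 and 248.7 CPM (adjusted p = 2.51e-15, log2 fold change -1.14, SE 0.05). ALDH1A3, which makes retinoic acid, fell from 169.0 ± 13.3 to 106.2 ± 2.9 CPM, with 27.5% of its exonic length overlapping the other strand, and the binding protein CRABP2 fell by 0.26. RXRA, a partner of the retinoic acid receptors, rose by 0.19, and its call was lost in the 12-library fit alone. ABCA4, a transporter of retinoids, rose from 2.679 ± 0.908 to 8.444 ± 0.733 CPM.

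Markers of the lung lineage moved in both directions, with 5 of 18 tested higher and 4 lower (12.7% and 13.3% of all genes). NKX2-1, the lineage factor of lung epithelium, went from 137.1, 137 and 124.5 CPM to 178, 167.3 and 163.4 CPM (adjusted p = 2e-06, log2 fold change 0.35, SE 0.05). The pioneer factor FOXA1 rose from 57.61 ± 0.837 to 84.3 ± 0.952 CPM (log2 fold change 0.55, adjusted p = 4.4e-09) and SOX2 by 0.23, while GATA6 fell by 0.35. The calls of SOX2 and GATA6 were lost in the 12-library fit alone. The airway mucins fell: MUC5B from 292.5 ± 15.2 to 220.9 ± 6.86 CPM, MUC5AC from 17.12 ± 0.768 to 11.67 ± 0.751 CPM and MUC4 from 33.16 ± 1.46 to 19.95 ± 3.09 CPM. The genes that complete differentiation, SFTPA1, SFTPB, SFTPC and SCGB1A1, were under the level of testing in both groups.

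**Figure D5:**
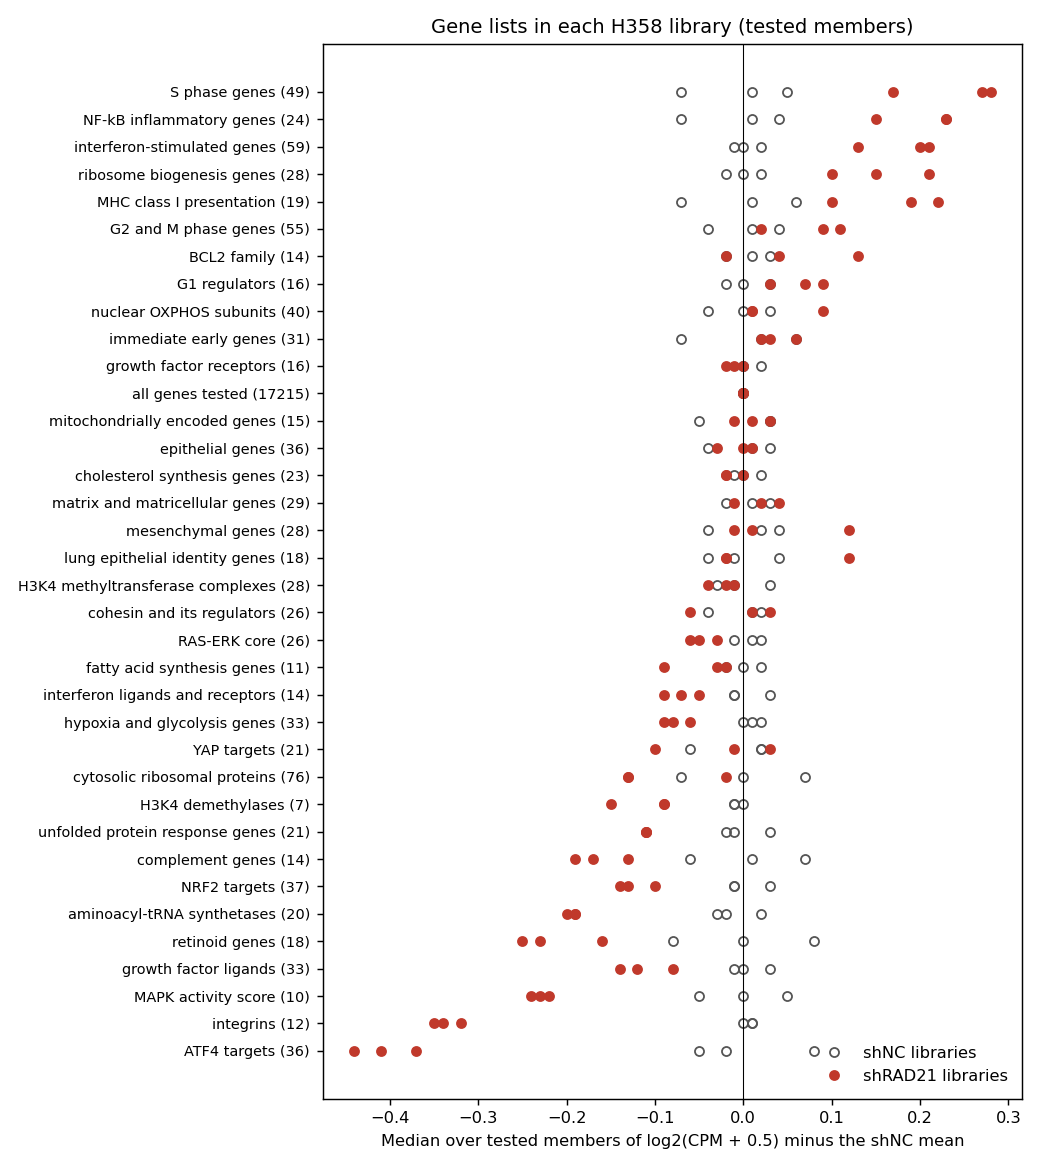
Median over the tested members of each gene list, in each of the 6 libraries, of log2(CPM + 0.5) minus the shNC mean. Lists are ordered by their median fitted fold change, with the number of tested members in brackets, and open and filled circles are shNC and shRAD21 libraries. The shRAD21 circles for ATF4 targets (-0.44 to -0.37) and integrins (-0.35 to -0.32) lie left of the shNC circles and those for S phase genes (0.17 to 0.28) right of them, while for epithelial genes they lie among them.

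Some of the strongest single changes belonged to no list. NRK, a kinase of the germinal centre kinase family, rose from 1.76, 2.517 and 2.357 CPM to 6.978, 9.873 and 9.765 CPM, 4.01-fold (adjusted p = 2.13e-09, log2 fold change 2.00, SE 0.18). KCNH2, the hERG potassium channel, rose from 2.189 ± 0.199 to 7.415 ± 0.923 CPM, 3.39-fold, and GFPT2, of the hexosamine pathway, from 4.447 ± 1.09 to 11.18 ± 1.29 CPM. CHST3, a chondroitin sulfotransferase, rose from 3.168 ± 0.513 to 8.206 ± 0.958 CPM, and VGLL3, a cofactor of TEAD factors, from 2.883 ± 0.303 to 7.371 ± 0.66 CPM. In the other direction PKNOX2, a TALE homeobox factor, went from 19.91, 18.09 and 18.47 CPM to 6.224, 6.519 and 6.325 CPM, 33.8% of control (adjusted p = 1.25e-11, log2 fold change -1.56, SE 0.11). GUCY1B1, a subunit of soluble guanylate cyclase, fell from 27.84 ± 2.35 to 12.59 ± 2.27 CPM, HCAR2, the niacin receptor, from 6.71 ± 0.564 to 2.747 ± 0.349 CPM and DTX4, a ubiquitin ligase of the Deltex family, from 15.22 ± 1.57 to 6.642 ± 0.493 CPM. By change in CPM the largest losses were EEF1A1, ASPH, aspartate beta-hydroxylase, from 1662 ± 53 to 981.7 ± 6.1 CPM, and AHNAK, a large scaffold protein, from 3695 ± 120 to 3123 ± 64.2 CPM. The largest gains were TGFBI, MT-ND1, a mitochondrially encoded subunit of complex I, from 2320 ± 116 to 2794 ± 12.7 CPM, and DHRS2, a short-chain reductase, from 1419 ± 42.3 to 1826 ± 29.6 CPM.

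CD55, which protects cells from complement, fell to 52.3% of control, from 134.3, 124.7 and 125.7 CPM to 70.41, 66.2 and 64.48 CPM (adjusted p = 5.43e-14, log2 fold change -0.94, SE 0.05), and the related inhibitors CD46 and CD59 fell by 0.19 and 0.20. The CD46 call was lost with GC and length offsets and in the 12-library fit, and that of CD59 in the 12-library fit alone. Clusterin, CLU, rose from 37.42 ± 3.35 to 63.67 ± 3.91 CPM. The endothelial marker genes summed to between 17.8 and 20.3 CPM in shNC and between 10.4 and 14.1 CPM in shRAD21, led by KDR, from 12.76 ± 0.781 to 7.849 ± 1.44 CPM, and PECAM1, from 4.201 ± 0.862 to 1.819 ± 0.588 CPM. VWF went the other way, from 1.009 ± 0.091 to 1.915 ± 0.266 CPM (adjusted p = 0.0219, log2 fold change 0.93, SE 0.30). Beside the 12-library fit, its call was lost in DESeq2's Wald test and without shNC replicate 1 or 2 or shRAD21 replicate 2 or 3. CDH5, TEK and CLDN5 were below 0.5 CPM in both group means.

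Of 935 lincRNAs 5.24% rose and 6.31% fell, and of 13371 protein-coding genes 15.2% rose and 15.5% fell. LINC01511 rose from 6.07, 5.401 and 5.173 CPM to 14.96, 13.67 and 12.47 CPM (adjusted p = 5.85e-09, log2 fold change 1.30, SE 0.13), and AL161431.1 from 12.7 ± 2.61 to 27.01 ± 2.62 CPM. SCHLAP1 fell from 2.98 ± 0.445 to 1.391 ± 0.506 CPM (log2 fold change -1.10, adjusted p = 0.00259), with 14.8% overlap on the other strand.

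Of 1106 pairs of neighbouring called genes whose spans do not overlap, 709 (64.1%) moved the same way, where 48.9% of all called genes had risen. This share of pairs was not tested and was not counted again with GC and length offsets. LINC01511 lay in a run of 6 neighbouring tested genes that all rose, at chr5:1008829-1523977: NKD2, SLC12A7, TERT, CLPTM1L, LINC01511 and LPCAT1, by 0.18 to 1.30 (log2). TERT, the catalytic subunit of telomerase, went from 1.396, 1.468 and 2.03 CPM to 2.892, 3.354 and 3.316 CPM (adjusted p = 0.00289, log2 fold change 0.97, SE 0.24). A run of 7 rising genes at chr3:127689062-128681075 held GATA2 (log2 fold change 0.67), and 7 genes from HLTF to TM4SF1 at chr3:149030127-149377865 all fell. By chromosome, 228 of 1133 tested genes fell and 84 rose on chromosome 2 (20.1% and 7.41%), and 323 of 1723 fell and 183 rose on chromosome 1. With GC and length offsets these numbers were 197 and 112 on chromosome 2 and 320 and 200 on chromosome 1. These runs and chromosomes were singled out after their values were seen.

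IFI27, SPP1 and many other genes responded differently to RAD21 knockdown in A549. The log2 fold change of RAD21 itself was -0.51 in H358 and -1.08 in A549. A difference between the lines therefore cannot be told apart from a difference in the depth of knockdown. Across the 17215 genes the log2 fold changes of the 2 lines, which share no control library, had Pearson's r = 0.0175 (Spearman's rho = -0.00839). This is a description across genes, with no test. The genes were those with enough counts in H358, and some, such as CDKN2B, had 0 CPM and a fold change of 0 in A549. Of genes called in both lines 805 moved the same way and 721 opposite ways. H358 values came from the fit of its 6 libraries and A549 values from the fit of all 12. A549 shRAD21 replicate 3 was not left out of either comparison. In a single fit of 12 libraries the effect of the knockdown differed between the lines for 3325 of 18939 genes (17.6%), 1442 higher in H358 (7.61%) and 1883 lower (9.94%). The number depends on 1 library: without A549 shRAD21 replicate 3 it was 7348. Of the interferon-stimulated genes 7 differed upward and 14 downward in H358, of the ATF4 targets 4 upward and 11 downward, and of the S phase genes 11 upward and none downward. IFI27 rose by 2.32 in H358 and was at 1.107 and 1.219 CPM in A549 (difference 2.19, SE 0.44, adjusted p = 0.00203). SPP1 fell by 1.99 in H358 and rose by 1.09 in A549 (difference -3.09, SE 0.13, adjusted p = 8.03e-11). NRK, by contrast, rose by 2.00 and 1.95 in the lines. DHRS9 fell by 2.05 in H358 and was lower by 2.55 (SE 0.85) in A549. Its A549 levels were near the floor, at 0.2926 CPM in shNC and 0.04155 CPM in shRAD21.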

How the data were processed

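Per the labels' protocols, TRIzol was used for RNA extraction and the VAHTS Universal V6 kit for library construction. The deposited values are raw read counts per gene. The tools named in the submitters' processing notes are featureCounts 1.5.0-p3, HISAT2 2.0.5 and fastp, with hg38 as the build, and the strand setting is not given in these notes. Gene IDs, positions and lengths equal those of GENCODE 29.

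Counts of the 6 H358 libraries were analysed with edgeR 4.0.16 in R 4.3.3: edgeR's default filter on low counts, TMM scaling, the quasi-likelihood test of shRAD21 against shNC and Benjamini-Hochberg adjustment. The difference between the lines was tested as an interaction in 1 fit of 12 libraries. The scripts were tested on simulated data. Libraries differed by more than sampling noise within groups, so none was counted as a duplicate. DESeq2 1.42.0, limma 3.58.1, other filters and scalings, GC content and length offsets, a replicate block and leaving out each library were alternatives. Figures were drawn with matplotlib 3.10.9.

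The gene lists and tests were chosen with earlier results of these data known. Genes were named by rule: RAD21, the cohesin ring and the MAPK score; regulators such as ATF4, NFE2L2 and IRF9; the called protein-coding genes (mean of at least 4 CPM, no overlap) with the 12 strongest rises and 12 strongest falls; the 6 largest CPM gains and losses; up to 4 called members of each list each way by adjusted p; and 4 lincRNA or antisense genes each way (mean of at least 2 CPM). Of these, the 5 largest differences between the lines each way among those past the test are given. Other list members, the runs of neighbours and AL353072.1 were chosen after their values were seen. Some genes and lists are not reported here.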

Additional observations from a re-analysis of the deposited data

Results flagged for a closer look

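The effect of RAD21 knockdown differed between H358 and A549, by the interaction test of edgeR's quasi-likelihood fit of 12 libraries, for RAD21 and for 10 genes. The 10 are the 5 largest differences each way among the named genes whose difference passed the test. Differences are H358 minus A549 in log2 fold change, each with its SE and adjusted p. They rest on 3 libraries a group and are also given without A549 shRAD21 replicate 3, the library that most changes the number of genes that differ. As RAD21 was lowered less in H358, cell line and depth of knockdown cannot be told apart in them.

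RAD21 itself differed by 0.57 (SE 0.12, adjusted p = 0.00228; 0.46 without that library), with a fold change of -0.51 in H358 and -1.08 in A549.

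Among the genes whose fold change was lower in H358 than in A549, CEACAM6, a cell surface adhesion molecule, differed by -3.69 (SE 0.25, adjusted p = 2.59e-08; -3.83), with 0.77 in H358 and 4.46 in A549. GBP1 differed by -3.66 (SE 0.38, adjusted p = 3.07e-06; -3.79): it was -0.28 in H358 and 3.39 in A549, where its level went from 0.2421 to 2.593 CPM. ABCA4 differed by -3.21 (SE 0.64, adjusted p = 0.00199; -2.97), rising by 1.63 in H358 and by 4.85 in A549 from 0.08856 CPM. NKX2-1 differed by -2.59 (SE 0.57, adjusted p = 0.00455; -2.68), but its A549 level was 0.06428 CPM in shNC and 0.5518 CPM in shRAD21. SPP1 differed by -3.09 (SE 0.13, adjusted p = 8.03e-11; -3.18), falling in H358 and rising in A549.

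Among the genes whose fold change was higher in H358 than in A549, EFEMP1, a fibulin of the matrix, differed by 3.41 (SE 0.24, adjusted p = 3.49e-08; 3.08), falling by 0.46 in H358 and by 3.87 in A549. FBXO2, a ubiquitin ligase subunit that binds glycoproteins, differed by 2.79 (SE 0.23, adjusted p = 1.44e-07; 2.97), rising by 1.42 in H358 and falling by 1.37 in A549. SPARC differed by 2.71 (SE 0.44, adjusted p = 0.000346; 2.92), rising in H358 and falling in A549 from 1.069 to 0.4757 CPM. IFI27 differed by 2.19 (SE 0.44, adjusted p = 0.00203; 2.12). GFPT2 differed by 2.16 (SE 0.19, adjusted p = 4.74e-07; 2.10), rising by 1.32 in H358 and falling by 0.83 in A549. All 11 differences kept their direction and call in the alternatives run, which were 17 or 18 for each gene.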

How the results depend on the processing

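Depth limits genes of few counts: IL32, WNT10A and SCHLAP1 rest on a few CPM or less. In the fit of all 12 libraries 716 genes rose and 875 fell, and fewer genes rose of the interferon-stimulated (15), MHC class I (2), G2 and mitosis (5) and S phase (18) lists or fell of the NRF2 targets (8) and the MAPK score (4); the cause was not tested. Requiring 10 CPM in 3 libraries left 6 NF-kB genes higher, with fewer genes tested. Correlations of deviations between the groups were 0.0689, 0.0116 and 0.0354 for the same replicate number and between -0.0503 and 0.0164 for different numbers. Whether the replicate numbers pair the libraries was not tested. With a replicate block 2483 genes rose and 2627 fell, RAD21 was at -0.51, SMC1A (adjusted p = 0.02) and NFE2L2 (0.0257) passed the test, and 2661 genes differed between the lines. With the replicate block and GC and length offsets 28 G2 and mitosis genes rose. Some genes not called under any of these settings changed sign: STAG2 was 0.05 with the offsets, with and without the replicate block, and SMC3 ranged from -0.12 to 0.01 and CCND1 from -0.05 to 0.01 when 1 library was left out. Leaving out 1 library gave 1683 to 1964 genes higher and 1806 to 2073 lower, and RAD21 from -0.54 to -0.45. The number of genes that differ between the lines went from 2235 without H358 shNC replicate 3 to 7348 without A549 shRAD21 replicate 3. Of the 252 called named genes 156 kept their call in every alternative run, and BTG2, CFD, FGFR4 and MRAS lost it only in alternatives other than the 12-library fit.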

Other observations

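AL353072.1, a processed pseudogene on chromosome 1, had 0 counts in the 3 shNC libraries and 61 in the 3 shRAD21 libraries, at 1.32, 1.266 and 1.228 CPM. Against a floor of 3 counts over the shNC group it was at least 21.5-fold higher.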
